A study of Mus musculus with 88 samples.

Results

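The 9 genes described here belong to tumour necrosis factor (TNF) signalling and to the NF-kB feedback that follows it: the cytokine gene Tnf, its receptor genes Tnfrsf1a and Tnfrsf1b, the TWEAK receptor gene Tnfrsf12a, the inhibitor genes Tnfaip3 and Nfkbia, and the NF-kB subunit genes Nfkb1, Nfkb2 and Relb. They were found by matching Ensembl identifiers to gene symbols, and all 9 have values among the 54532 genes of the deposited count table. The RNA came from the cortex of C57BL/6 mice after controlled cortical impact, a contusion model in which a piston strikes the exposed brain. Mice aged 8 to 9 weeks were anaesthetised with isoflurane, had the skull opened over the right somatosensory cortex, were hit once and were given buprenorphine. They were perfused 24 or 72 h later, and naive mice gave the baseline. The naive group held 7 females and 6 males, the 24 h group 7 females and 8 males, and the 72 h group 9 females and 7 males. Each of the 44 animals gave a 4 mm punch from the ipsilateral (injured, right) and the contralateral (left) cortex, and the right punch of a naive mouse is called ipsilateral as well. No group analysed here had surgery without impact, so what the impact, the operation and the buprenorphine each contribute cannot be told apart. The design asks how the 2 sexes respond to the injury over time.

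TNF is a cytokine made early after tissue damage, in brain chiefly by microglia and by infiltrating myeloid cells. Binding to its receptors frees NF-kB dimers from their inhibitors, and the dimers enter the nucleus and switch on inflammatory genes. Among the genes they switch on are their own inhibitors, Nfkbia and Tnfaip3, and the subunit genes Nfkb1, Nfkb2 and Relb, so the pathway feeds back on itself. The TWEAK receptor, Tnfrsf12a, and other receptors of the family also feed the non-canonical branch, in which the Nfkb2 product pairs with the Relb product.

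The 88 libraries held 10.6 M to 26.4 M (mega) counts each, with a median of 16.2 M, and 87 of them were assigned to groups. For the ipsilateral library of the 72 h animal PM1 the labels differ on sex, and it enters no comparison. The ipsilateral library labelled PF1, a 72 h female, held 148 CPM (counts-per-million units) of 4 Y-linked genes, against 0.418 CPM or less in the other 45 female libraries and 0 in the contralateral library of PF1. The ipsilateral library of PM1 held none of these 4 genes, against 60.0 to 196 CPM in the 41 male libraries. Whether the ipsilateral punches of PF1 and PM1 were exchanged was not tested; if so, the side ratio of PF1 would set punches of 2 animals against each other. The library labelled PF1 was kept as labelled, and no call for the 9 genes changed without it. Both libraries of LF3, a 72 h female, stood apart from their groups. Their median gene differed by 1.04 (ipsilateral) and 1.18 (contralateral) on the log2 scale from the group, against 0.417 at most in any other library. The ipsilateral library of LF3 had the fewest counts (10.6 M), the highest mitochondrial share (10.5%) and the fewest genes detected (18788) of all libraries. Its contralateral library came next in mitochondrial share (7.80%) and in genes detected (21841). Results that rest on LF3 are given with and without it. As a check of the labelled tissue, 6 neuronal markers summed to 5858 to 6557 CPM in naive, 5536 to 6892 CPM in 24 h and 3192 to 10398 CPM in 72 h ipsilateral punches, and the highest of these sums was that of LF3. In bulk punches, fewer cells of a type and less RNA per cell cannot be told apart.

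The upstream sequences of Nfkbia, Tnfaip3 and Nfkb2 carry letters of the kind that NF-kB dimers bind, and are shown for that reason. Whether these letters bear on the levels of the genes was not tested. RefSeq upstream windows (build GRCm38.p6, the 250 bases before each annotated start) were on hand for 7 of the 9 genes, not for Nfkb1 and Relb. They were searched on both strands for GGNNTTTCC, a form of the NF-kB element picked after matches in these windows had been looked at, and no other motif was searched. Nfkbia, Tnfaip3 and Nfkb2 held it and the other 4 did not, against 4.93% of all 32851 windows of this length and 5.62% of 27025 genes. Because the motif was picked after such matches were seen, these shares cannot test for an excess among the 9 genes. The Nfkbia window lies at chr12:55492648-55492897 on the minus strand, with GGACTTTCC at 170 to 178 bases and, read on the other strand, GGAATTTCC at 21 to 29 bases before the start. The Tnf window, at chr17:35202008-35202257 on the minus strand, held no match, which says only that these letters are not in that window. For Tnfaip3 the 30 bases before its start (chr10:19015411-19015440, minus strand) held 2 matches, and for Nfkb2 a 30-base stretch (chr19:46305696-46305725, plus strand) before the third of its 3 annotated starts held 1, while GGGCTTTCC lay 2 to 10 bases before the first start. Sequences run 5′ to 3′ towards the start, with matches in capitals, and binding was not measured.
Nfkbia: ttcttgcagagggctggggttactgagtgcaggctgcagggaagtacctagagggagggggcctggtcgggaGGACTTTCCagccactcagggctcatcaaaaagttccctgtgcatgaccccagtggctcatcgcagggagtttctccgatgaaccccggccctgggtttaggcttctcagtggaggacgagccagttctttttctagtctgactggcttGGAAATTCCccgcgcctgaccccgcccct
Tnf: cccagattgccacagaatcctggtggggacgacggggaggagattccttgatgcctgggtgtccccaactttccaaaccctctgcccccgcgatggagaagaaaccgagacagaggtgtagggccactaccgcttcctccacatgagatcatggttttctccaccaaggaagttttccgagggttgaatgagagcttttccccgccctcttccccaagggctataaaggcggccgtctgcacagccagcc
Tnfaip3: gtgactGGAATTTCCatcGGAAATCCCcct
Nfkb2: ggtattttcgGGACTTTCCtaagcagcact

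In the injured cortex at 24 h all 9 genes were higher than in naive cortex in edgeR's quasi-likelihood test (adjusted p under 0.05 over 19126 genes), where 43.0% of all genes tested were called, 22.9% higher and 20.1% lower. The median log2 fold change of the 9 was 2.02, against 0.01 over all genes tested. At 72 h 8 of the 9 were higher, all but Tnfaip3, where 48.5% of all genes were called and 27.8% were higher, and the median was 1.88 against 0.06. For 8 of the 9 genes every 24 h library lay above every naive one, which held for 5.98% of all genes, with Relb the exception. At 72 h this held for 6 of 9 (7.18% of all genes), and without LF3 for 9 of 9 (15.5%).

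**Figure D1:**
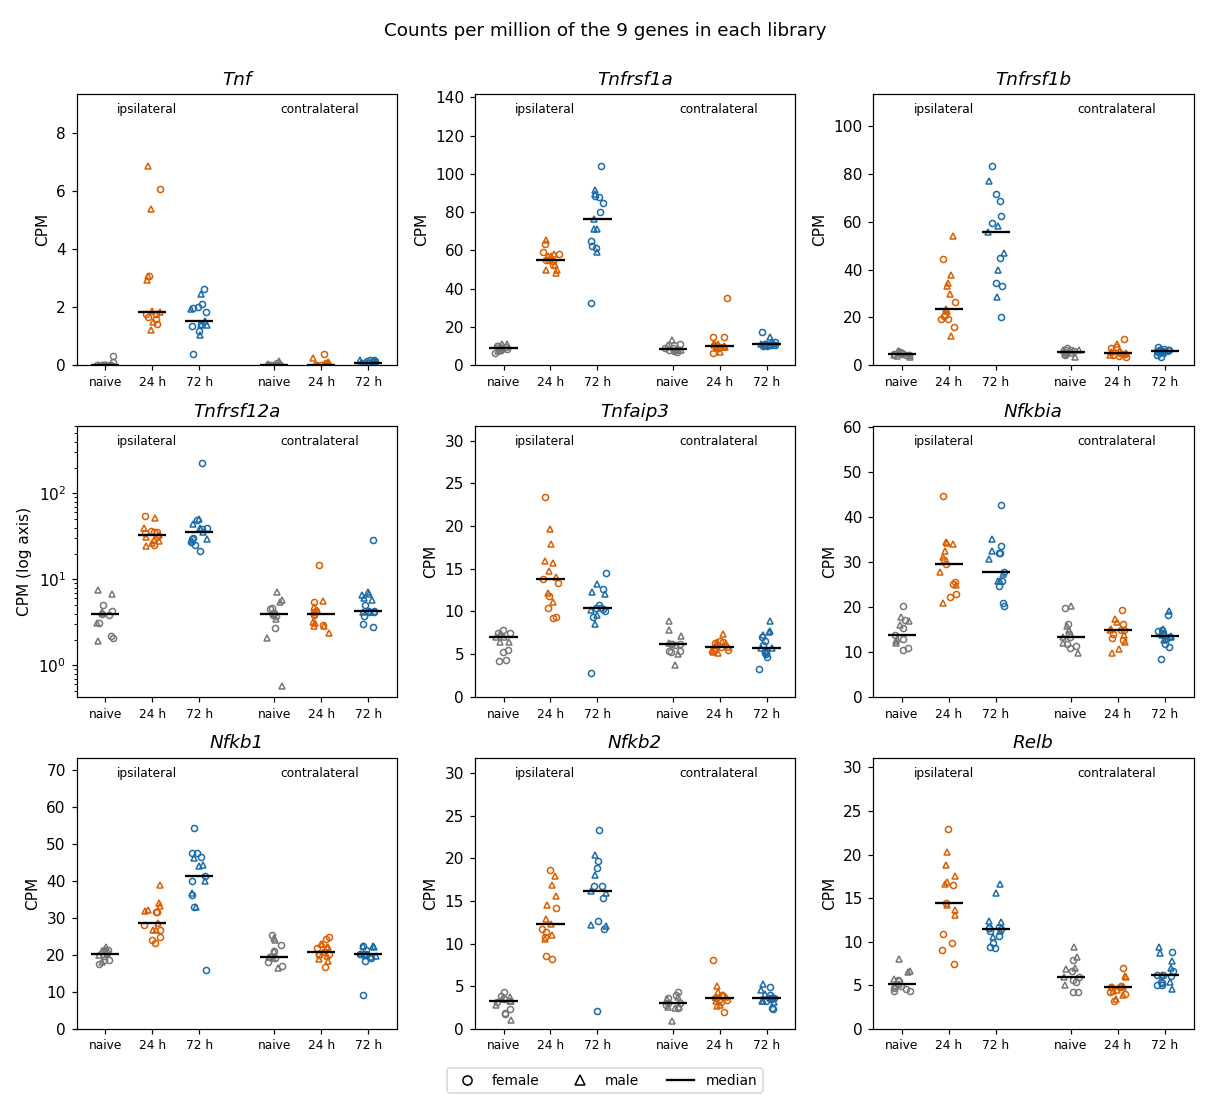
CPM (vertical axis, log axis for Tnfrsf12a) of the 9 genes in each assigned library, by time and side (horizontal axis). Circles are females, triangles males and lines group medians. Ipsilateral 24 h and 72 h points lie above the naive ones for most genes. Most contralateral points lie with the naive ones, apart from single high points such as those of Tnfrsf1a and Tnfrsf12a (24 h and 72 h) and of Tnfrsf1b and Nfkb2 (24 h). The single low ipsilateral 72 h points of Nfkb1, Nfkb2 and Tnfaip3 and the 227 CPM point of Tnfrsf12a are LF3.

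Tnf itself, on chromosome 17 (35199381 to 35202007, minus strand, GENCODE M21), was close to absent from naive cortex and rose in every injured punch. In naive ipsilateral punches 11 of 13 libraries had no Tnf count, and the highest, of the female EF3, had 0.308 CPM. Levels at 24 h were 1.19 CPM in the lowest library, 1.82 at the median and 6.85 in the highest. At 72 h they were 0.377, 1.54 and 2.62 CPM, and 1.04 CPM at the lowest without LF3. Every injured punch thus lay above every naive one, and the 24 h values had a long upper tail made by the male HM2 and the female RF1 (6.08 CPM). Pooled over libraries, Tnf was 87.0-fold higher at 24 h than in naive cortex (722 against 7 counts, exact 95% counting interval 42.0 to 217) and 51.8-fold higher at 72 h (407 against 7 counts, 24.9 to 130), and these intervals cover counting error only. Of the 7 naive counts 5 came from EF3, and without it the ratios were 282 at 24 h (722 against 2 counts, 77.8 to 2332) and 168 at 72 h (407 against 2 counts, 46.1 to 1389). Adjusted p-values over all genes were 2.14e-13 at 24 h and 5.85e-09 at 72 h in edgeR's test. The pooled level at 72 h was 0.595 of that at 24 h (counting interval 0.525 to 0.672), but over animals the 72 h and 24 h groups overlapped and the difference missed the threshold (log2 fold change -0.88 ± 0.44 SE, adjusted p = 0.121). Without the batch term that difference was called (-0.81, adjusted p = 0.0178).

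Tnfrsf1a, which encodes the widely expressed receptor that carries a death domain, was higher in every injured punch than in any naive one. In naive punches its levels were 6.29 CPM at the lowest, 8.99 at the median and 11.1 at the highest. At 24 h they were 48.2, 55.2 and 65.4 CPM. At 72 h they were 32.5, 76.6 and 104 CPM, and the lowest without LF3 was 59.1. The lowest injured punch was LF3, and without it 72 h punches began above the 24 h median. The fitted log2 fold change against naive was 2.52 ± 0.09 at 24 h (SE; adjusted p = 1.48e-24) and 2.70 ± 0.13 at 72 h (adjusted p = 1.93e-20). Although the 72 h median was the higher, the fit with a batch term gave 0.18 ± 0.12 for 72 h against 24 h (adjusted p = 0.225), and without that term 0.38 (adjusted p = 0.00023).

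Tnfrsf1b, the receptor found mainly on immune, glial and endothelial cells, rose at 24 h and was higher still at 72 h. Naive punches held 3.38 CPM at the lowest, 4.76 at the median and 5.97 at the highest. At 24 h these were 12.4, 23.6 and 53.9 CPM, and at 72 h 20.2, 55.8 and 83.3 CPM. Injured and naive punches did not overlap at either time, while the 24 h and 72 h punches did. Its log2 fold change was 2.42 ± 0.19 at 24 h (adjusted p = 4.86e-14) and 3.03 ± 0.26 at 72 h (adjusted p = 9.4e-13) against naive. Against 24 h it was 0.61 ± 0.23 higher at 72 h (adjusted p = 0.0356), a difference that missed the threshold within batch B alone (0.62 ± 0.26, adjusted p = 0.103), with total count scaling (0.59, adjusted p = 0.0638), without the low-count filter (0.61, adjusted p = 0.0523) and when any 1 of the ipsilateral libraries of QF1, QF2, QM1 or RF2 (adjusted p of 0.0519 to 0.0611), PF2 (0.41, adjusted p = 0.186) or LM2 (0.42, adjusted p = 0.216) was left out.

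Tnfrsf12a, the TWEAK receptor, had the largest fitted rise at 24 h of the 8 genes other than Tnf. Its naive levels were 1.92, 3.97 and 7.60 CPM at the lowest, median and highest. At 24 h they were 24.4, 33.0 and 55.1 CPM. At 72 h they were 21.3, 36.0 and 227 CPM. The 227 CPM came from LF3, and the next highest 72 h library had 50.9 CPM, so the remaining 72 h punches covered much the same range as the 24 h ones. Against naive the log2 fold change was 2.92 ± 0.29 at 24 h (adjusted p = 6.67e-11) and 4.02 ± 0.41 at 72 h (adjusted p = 1.08e-10), and 2.60 ± 0.23 at 72 h without LF3 (adjusted p = 1.61e-12). The 72 h against 24 h difference was 1.10 ± 0.37 with LF3 (adjusted p = 0.017) and turned to -0.31 ± 0.22 without it (adjusted p = 0.289), so its direction rests on that animal.

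Tnfaip3 encodes a ubiquitin-editing enzyme that shuts down signalling below the TNF receptors, and it rose at 24 h and was lower again at 72 h. Naive punches held 4.18 CPM at the lowest, 7.03 at the median and 7.84 at the highest. At 24 h these were 9.27, 13.8 and 23.4 CPM. At 72 h they were 2.83, 10.4 and 14.5 CPM, and the lowest without LF3 was 8.54. All 24 h punches lay above all naive ones, as did all 72 h punches but LF3. The log2 fold change against naive was 1.03 ± 0.14 at 24 h (adjusted p = 4.65e-08) and 0.44 ± 0.20 at 72 h (adjusted p = 0.0706), which became 0.59 ± 0.19 without LF3 (adjusted p = 0.00918) and also passed without KF3 (0.53, adjusted p = 0.0387) or RF1 (0.51, adjusted p = 0.0181) and without the batch term (0.57, adjusted p = 0.000289). It fell by 0.59 ± 0.19 on the log2 scale at 72 h against 24 h (adjusted p = 0.0156), and this call was lost without LF3 (-0.43 ± 0.18, adjusted p = 0.0657) or PM2 (-0.51, adjusted p = 0.0609).

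Nfkbia encodes IkB-alpha, the inhibitor that holds NF-kB in the cytoplasm and is remade when NF-kB is active. In naive punches its levels were 10.4, 13.7 and 20.3 CPM at the lowest, median and highest. At 24 h they were 20.7, 29.5 and 44.5 CPM, and at 72 h 20.3, 27.8 and 42.7 CPM. The groups met at the edge without overlapping, since the lowest 72 h punch and the highest naive punch both had 20.3 CPM. Its log2 fold change against naive was 0.88 ± 0.11 at 24 h (adjusted p = 5.03e-09) and 0.69 ± 0.16 at 72 h (adjusted p = 0.000312). The 72 h and 24 h groups overlapped over nearly their whole range, and their difference was -0.18 ± 0.15 (adjusted p = 0.344).

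Of the subunit genes, Nfkb1, the precursor of the canonical dimer partner, had the smallest rise of the 9 at 24 h and was higher at 72 h than at 24 h. Naive levels were 17.5 CPM at the lowest, 20.3 at the median and 22.2 at the highest. At 24 h they were 23.3, 28.8 and 38.9 CPM. At 72 h they were 15.9, 41.5 and 54.3 CPM, and the lowest without LF3 was 33.0. Apart from LF3, which lay below every naive punch, no injured punch reached down into the naive range. The log2 fold change against naive was 0.48 ± 0.08 at 24 h (adjusted p = 1.51e-06) and 0.74 ± 0.11 at 72 h (adjusted p = 6.9e-07). Against 24 h it was 0.26 ± 0.10 higher at 72 h (adjusted p = 0.0425) and 0.37 ± 0.10 without LF3 (adjusted p = 0.00263), but it missed the threshold within batch B (0.30 ± 0.14, adjusted p = 0.147), with total count scaling (0.24, adjusted p = 0.156), without the low-count filter (0.26, adjusted p = 0.0979) and when any 1 of QF2, QM1, QM2 or RF2 (adjusted p of 0.0578 to 0.0715), PF2 (0.21 ± 0.11, adjusted p = 0.131) or LM2 (0.14 ± 0.11, adjusted p = 0.34) was left out.

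Nfkb2, the precursor of the non-canonical subunit, rose at both times. Its exons overlap those of Psd on the opposite strand, Psd had 761579 counts over the table, and whether counting used strand is not given in the sources used here, so the level of Nfkb2 is uncertain. In naive punches it was 1.03, 3.30 and 4.30 CPM at the lowest, median and highest. At 24 h it was 8.23, 12.3 and 18.7 CPM, and at 72 h 2.07, 16.1 and 23.3 CPM with a lowest value of 11.7 without LF3. LF3 lay within the naive range and every other injured punch above it. The log2 fold change against naive was 2.02 ± 0.19 at 24 h (adjusted p = 7.57e-12) and 1.88 ± 0.26 at 72 h (adjusted p = 1.48e-07), and 72 h differed from 24 h by -0.13 ± 0.25 (adjusted p = 0.703).

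Relb, the partner of the Nfkb2 product, was the only one of the 9 whose 24 h and naive punches overlapped. Naive levels were 4.30 CPM at the lowest, 5.12 at the median and 8.03 at the highest. At 24 h they were 7.48, 14.5 and 23.0 CPM, and at 72 h 9.24, 11.4 and 16.6 CPM. Both the lowest and the highest 24 h value were those of females, DF3 and RF1, and all 72 h punches lay above all naive ones. Its log2 fold change against naive was 1.33 ± 0.13 at 24 h (adjusted p = 2.71e-11) and 1.18 ± 0.19 at 72 h (adjusted p = 2.11e-06). The difference of 72 h from 24 h was -0.15 ± 0.18 (adjusted p = 0.534), and -0.34 without the batch term (adjusted p = 0.0196).

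Direct comparison of 72 h with 24 h in the injured cortex called 4 of the 9 genes, Tnfrsf1b, Tnfrsf12a and Nfkb1 higher and Tnfaip3 lower, at a background of 37.0% of genes called (21.7% higher and 15.3% lower). Naive and 24 h mice made up batch A, every time was present in batch B, and batch C had 72 h mice alone, so the comparison leans on the 5 ipsilateral 72 h libraries of batch B. Within batch B edgeR called none of the 9 (DESeq2 was not run there) and 2 had an unadjusted p under 0.05, where 20.6% of all genes were called. The same 4 genes had log2 fold changes of 0.62, 0.82, 0.30 and -0.59 in the order just named. LF3 is among the 5 libraries, and batch B was not fitted without it. The library labelled PF1, whose Y-linked counts differ from its label, is among them too, and batch B was not fitted without that library either. Over all batches without LF3 the 4 values were 0.72, -0.31, 0.37 and -0.43 in the same order. The 24 h against naive rise, in contrast, was called for all 9 genes within batch A alone (38.2% of all genes called, 19.4% higher) and within batch B alone (23.0% called, 13.1% higher). In batch A the 8 genes other than Tnf had log2 fold changes of 0.47 (Nfkb1) to 2.92 (Tnfrsf12a), and in batch B 0.45 (Nfkb1) to 2.92 (Tnfrsf12a). At 72 h against naive, batch B alone called 8 of the 9 (33.6% of all genes called, 19.4% higher), all but Tnfaip3 (0.47 ± 0.32, adjusted p = 0.274).

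**Figure D2:**
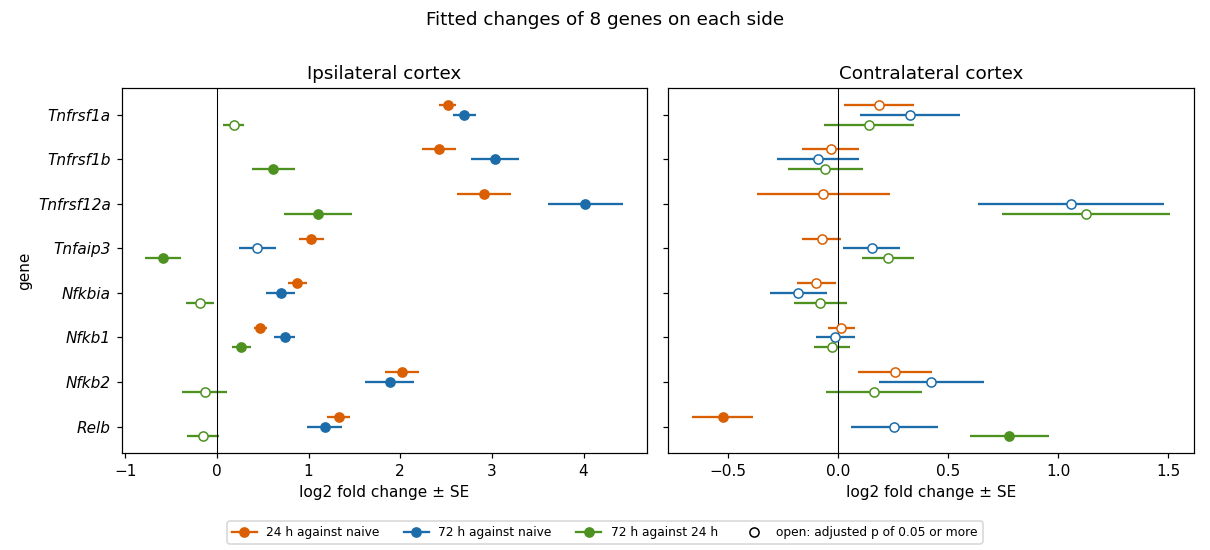
Fitted log2 fold change (horizontal axis, with SE bars) of 8 genes for 24 h against naive, 72 h against naive and 72 h against 24 h in ipsilateral (left) and contralateral (right) cortex. Filled points have an adjusted p under 0.05. Tnf is left out because most naive libraries had no count of it, and the 72 h value of Tnfrsf12a, 4.02, includes LF3.

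Markers of other cells moved in the same punches. The 6 monocyte and macrophage markers summed to 0.337 to 4.12 CPM in naive punches, 19.5 to 139 CPM at 24 h and 19.6 to 245 CPM at 72 h, and 5 of 6 were called higher at 24 h (22.9% of all genes) and 6 of 6 at 72 h (27.8% of all genes). The 6 neutrophil markers summed to 0.121 to 8.58 CPM in naive punches, 12.3 to 392 CPM at 24 h and 3.32 to 35.3 CPM at 72 h, with all 5 tested markers called higher at both times, beside the same shares of all genes. F10 and Ly6g had no count in any naive ipsilateral punch. The 6 microglial markers summed to 200 to 249 CPM in naive punches, 167 to 230 CPM at 24 h and 196 to 976 CPM at 72 h, and 4 of 6 were called lower at 24 h (20.1% of all genes) while 5 of 6 were called higher at 72 h (27.8% of all genes). The 6 astrocyte markers summed to 812 to 1169 CPM in naive punches, 1632 to 3055 CPM at 24 h and 1065 to 5602 CPM at 72 h. The 6 endothelial markers summed to 201 to 295 CPM in naive punches, 246 to 326 CPM at 24 h and 382 to 644 CPM at 72 h, so that only the 72 h sums lay above all naive ones. The 6 fibroblast and meningeal markers summed to 36.7 to 321 CPM in naive punches, 39.5 to 504 CPM at 24 h and 116 to 1394 CPM at 72 h, and the 5 red cell markers to 3.15 to 90.9, 30.3 to 590 and 70.7 to 509 CPM at the same stages. The 6 oligodendrocyte markers summed to 1387 to 4888 CPM in naive punches, 2559 to 6819 CPM at 24 h and 943 to 7279 CPM at 72 h. The part of these cells in the changes of the 9 genes was not tested.

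Animals differed in how far the 9 genes moved together. Among the 24 h punches the female RF1 was highest for 4 of the 9 genes and among the top 3 for 7, and the male HM2 was highest for 2 and among the top 3 for 6. The male FM2 was lowest for 4, and it also had the lowest sums of monocyte, neutrophil, microglial, endothelial and oligodendrocyte markers at 24 h. RF1 had 124 CPM of monocyte markers and 91.9 CPM of neutrophil markers, and the male DM2, which had the highest sums of both, was among the top 3 for 5 of the 9 genes. DM2 also had the highest 24 h sums of fibroblast and meningeal (504 CPM), red cell (590 CPM) and T and B lymphocyte markers (8.40 CPM). Its astrocyte sum, 1632 CPM, was the lowest at 24 h. At 72 h the female SF3 was highest for 6 of the 9 genes and had the highest monocyte sum, 245 CPM. SF3 also had the highest 72 h sums of fibroblast and meningeal (1394 CPM) and T and B lymphocyte markers (2.90 CPM), and the lowest neuronal sum (3192 CPM). LF3 was lowest for 7 of the 9 genes and had the lowest monocyte, microglial, astrocyte and oligodendrocyte sums and the highest neuronal sum. Its neutrophil sum, 35.2 CPM, was close to the highest at 72 h (35.3 CPM in SF3), and its red cell sum was 460 CPM against a 72 h median of 137 CPM. The part of cell content in this order was not tested.

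In the contralateral cortex few of the 9 genes differed from naive cortex. At 24 h 1 of the 8 genes tested was called, Relb, which was lower, at a background of 2.10% of genes called and 1.29% lower, and DESeq2 also called 1. Tnf did not pass the low-count filter. Relb was 3.16 CPM at the lowest, 4.77 at the median and 6.99 at the highest in 24 h punches, against 4.20, 5.98 and 9.44 CPM in naive ones. The groups overlapped widely, its log2 fold change was -0.52 ± 0.14 (adjusted p = 0.0319), and the call was lost within batch A (-0.49, adjusted p = 0.15), within batch B (-0.49, adjusted p = 0.495) and when any 1 of DF2, FF3, FM2, GF2, KM3 (adjusted p of 0.0541 to 0.0723) or KM2 (0.116) was left out. The call was kept without LF3 (-0.52 ± 0.12, adjusted p = 0.00368), where 1190 of 18429 genes were called. It was also kept without LF3 and QF1 (-0.52 ± 0.12, adjusted p = 0.00482), where 1116 of 18374 were called. At 72 h edgeR called none of the 8 against naive, where 0.260% of all genes were called (0.244% higher and 0.0163% lower), 1 had an unadjusted p under 0.05, and DESeq2 also called none. That gene was Tnfrsf12a (1.06 ± 0.42, adjusted p = 0.188), and without LF3 it stood at -0.14 ± 0.28 (adjusted p = 0.994).

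Single contralateral libraries stood out for the receptors and for Nfkb2. Tnfrsf1a reached 35.2 CPM in the 24 h female QF1 and 17.4 CPM in the 72 h female LF3, against medians of 9.79 CPM at 24 h and 10.8 CPM at 72 h and a naive maximum of 13.2 CPM. Tnfrsf12a reached 14.8 CPM in QF1 and 28.6 CPM in LF3, against a naive maximum of 7.10 CPM. Tnfrsf1b reached 11.1 CPM in QF1 and 8.87 CPM in the 24 h male DM2, against a naive maximum of 6.96 CPM. Nfkb2 reached 8.02 CPM in QF1, against a naive maximum of 4.32 CPM. QF1 was the highest 24 h contralateral library for 5 of the 9 genes, and its contralateral astrocyte and endothelial marker sums, 1578 and 289 CPM, were the highest of that group and its oligodendrocyte sum, 1027 CPM, the lowest. LF3 had the lowest contralateral astrocyte and oligodendrocyte sums at 72 h, 323 and 1747 CPM, and the highest neuronal and endothelial sums, 9034 and 359 CPM. The part of cell content in these values was not tested.

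Contralateral Tnf was rarely counted. No Tnf count was found in 10 of 13 contralateral libraries of naive mice, in 10 of 15 at 24 h and in 3 of 16 at 72 h, and the highest values were 0.146 CPM in naive mice, 0.397 CPM at 24 h (RF1) and 0.187 CPM at 72 h. Pooled over libraries, the ratio to naive was 3.00 at 24 h (14 against 4 counts, exact 95% counting interval 0.943 to 12.5) and 4.46 at 72 h (22 against 4 counts, 1.51 to 17.8). Of the 14 counts at 24 h 6 came from RF1, and without it the ratio was 1.83 (0.489 to 8.29). The ranges of injured and naive animals overlapped. The low-count filter removed Tnf from the contralateral fit, and in edgeR without that filter (35763 genes) the adjusted p was 0.482 at 24 h and 0.307 at 72 h against naive (unadjusted 0.0663 and 0.0177).

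At 72 h against 24 h, contralateral Relb was the only one of the 8 genes called, 0.78 ± 0.18 higher (adjusted p = 0.0116), at a background of 9.21% of genes called, 8.41% higher and 0.803% lower. Without LF3 it was 0.51 ± 0.16 (adjusted p = 0.287), and without LF3 the contralateral comparison called 45 genes in all where it had called 1698. Tnfrsf12a came next at 1.12 ± 0.38 (adjusted p = 0.0538), and was -0.07 ± 0.26 without LF3 (adjusted p = 0.983). These contralateral comparisons share their naive or 24 h libraries with one another.

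Setting the 2 punches of each animal against each other removes differences between animals. In naive mice edgeR, with the animal as a block, called none of the 9 genes and 0% of 19946 genes between the sides (574 had an unadjusted p under 0.05), and DESeq2 called none either. Relb alone had an unadjusted p under 0.05 (0.0479), with the ipsilateral punch lower in 11 of 13 naive animals. At 24 h all 9 genes were higher on the injured side, where 47.7% of all genes were called and 23.7% were higher, and in 15 of 15 animals for each gene. At 72 h all 9 were again higher, where 61.7% of all genes were called, 31.1% higher and 30.6% lower, in 15 of 15 animals for each gene except Tnfaip3 and Nfkb2, for which LF3 went the other way.

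**Figure D3:**
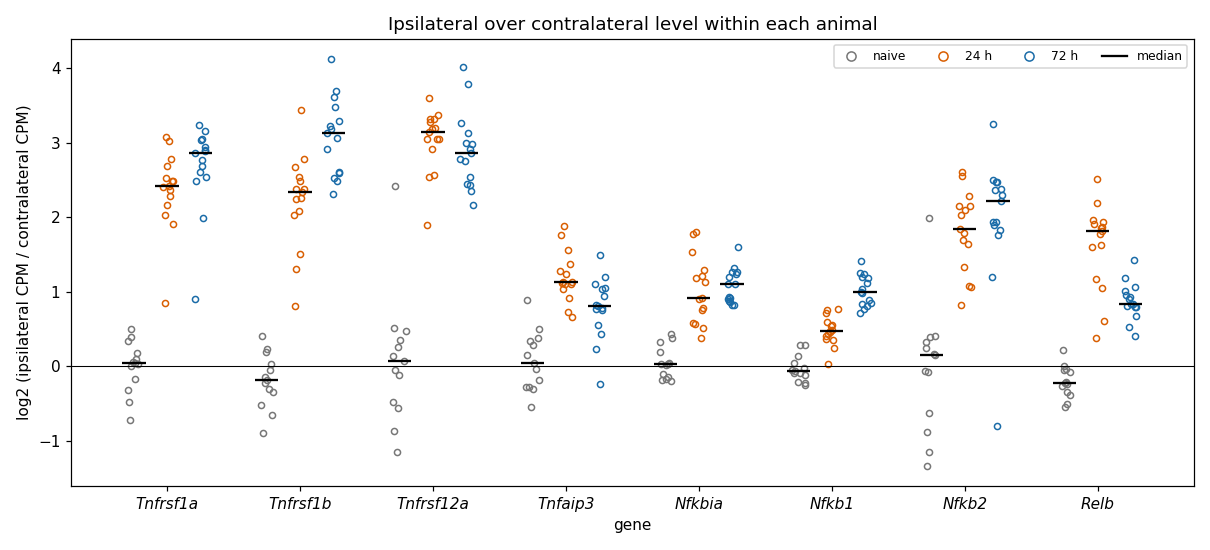
Log2 ratio of ipsilateral over contralateral CPM (vertical axis) for 8 genes in each animal, naive, 24 h and 72 h (colours), with medians as lines. Naive points scatter around 0 and injured points lie above it, except for LF3 in Tnfaip3 and Nfkb2. Tnf is left out because many contralateral libraries had no count of it.

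The side difference of Tnf, pooled over animals, was 49.3-fold at 24 h (722 ipsilateral against 14 contralateral counts, counting interval 29.2 to 90.7, and 74.6-fold, 37.7 to 174, without RF1) and 19.8-fold at 72 h (407 against 22 counts, 12.9 to 31.9). Among the receptors, the fitted log2 side difference at 24 h was 2.29 ± 0.13 for Tnfrsf1a, 2.15 ± 0.13 for Tnfrsf1b and 2.95 ± 0.13 for Tnfrsf12a. At 72 h it was 2.56 ± 0.13, 2.96 ± 0.13 and 2.73 ± 0.13 for the same genes. The inhibitors had smaller side differences, 1.14 ± 0.10 for Tnfaip3 and 0.96 ± 0.08 for Nfkbia at 24 h, and 0.66 ± 0.10 and 0.95 ± 0.08 at 72 h. Of the subunits, Nfkb2 had 1.73 ± 0.18, Relb 1.55 ± 0.11 and Nfkb1 0.42 ± 0.05 at 24 h. At 72 h Nfkb2 had 1.90 ± 0.18, Relb 0.75 ± 0.10 and Nfkb1 0.88 ± 0.05. The largest adjusted p among these was 1.04e-07, for Tnfaip3 at 72 h, and that of Tnf was 3.42e-15 at 24 h and 8.67e-13 at 72 h.

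The side difference itself changed between the times for 4 of the 9 genes, 2 larger and 2 smaller at 72 h, where 35.4% of all genes were called, and 18.9% had a larger and 16.4% a smaller side difference. Tnfrsf1b gained 0.81 ± 0.18 on the log2 scale at 72 h against 24 h (adjusted p = 0.000414), and Nfkb1 gained 0.47 ± 0.07 (adjusted p = 1.18e-06). The side difference of Relb fell by 0.80 ± 0.15 (adjusted p = 2.41e-05), and that of Tnfaip3 fell by 0.48 ± 0.14 (adjusted p = 0.00427). The 4 calls held without LF3, and Tnfrsf1a then joined them (0.39 ± 0.15, adjusted p = 0.0313, against 0.26 ± 0.18 and 0.277 with LF3). For Nfkbia the change was -0.01 ± 0.12, with a 95% interval of -0.24 to 0.22, and for Tnfrsf12a it was -0.22 ± 0.18 (-0.58 to 0.13). Contralateral Relb had itself differed between these times, as given above, and the part of the contralateral punch in this change was not tested.

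The difference between the female and the male change was not called by edgeR for any of the 9 genes, or for any of 19126 genes (0%), at either time. An unadjusted p under 0.05 was found for 1 of the 9 each time, Tnf, and for 299 genes at 24 h and 580 at 72 h. DESeq2, which gave no p for Tnfrsf12a here, called none of the other 8. Over all genes DESeq2 called 1 at 24 h and 0 at 72 h. At 24 h the female minus male difference was 0.13 (95% interval -0.21 to 0.46) for Tnfrsf1a, -0.45 (-1.15 to 0.24) for Tnfrsf1b and 0.50 (-0.57 to 1.57) for Tnfrsf12a. Intervals at 24 h were -0.48 to 0.33 for Nfkbia and -0.55 to 0.55 for Tnfaip3. Those for the subunits at 24 h were -0.44 to 0.13 (Nfkb1), -0.94 to 0.47 (Nfkb2) and -0.46 to 0.48 (Relb). At 72 h the intervals were -0.32 to 1.88 for Tnfrsf12a, -0.68 to 0.67 for Tnfrsf1b and -0.78 to 0.63 for Nfkb2, and those of the other 5 genes lay within 0.63 of 0.

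All 7 Tnf counts of naive ipsilateral punches came from 2 of 7 females and none from the 6 males, whereas contralaterally 1 naive count came from females and 3 from males, and this baseline was not tested between the sexes. Pooled Tnf was 40.0-fold higher at 24 h than in naive females (counting interval 19.2 to 100, and 121-fold, 33.1 to 1000, without EF3) and at least 107-fold higher in males, taking 3 counts over the naive male libraries as the floor. At 72 h it was 28.2-fold higher in females (13.5 to 70.9, and 84.9-fold, 23.2 to 705, without EF3) and at least 54.7-fold higher in males. The injured levels overlapped, with 24 h medians of 1.75 CPM (females) and 2.40 CPM (males) and 72 h medians of 1.85 CPM (females) and 1.46 CPM (males). The unadjusted p was 0.0236 at 24 h and 0.0322 at 72 h, with all naive male libraries at 0, and the adjusted p was 1.

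Levels can be compared between genes only per length, here as RPKM, the CPM divided by the kilobases of exon in GENCODE M21. In naive ipsilateral cortex Nfkbia led with a median of 8.50 RPKM, above Tnfrsf1a at 3.47 RPKM without overlap. Tnfrsf12a (2.05), Nfkb1 (1.68), Relb (1.32), Tnfrsf1b (1.25), Tnfaip3 (0.973) and Nfkb2 (0.719) followed, each overlapping the next, and Tnf was last. At 24 h the order was Tnfrsf1a (21.3), Nfkbia (18.3), Tnfrsf12a (17.1), Tnfrsf1b (6.18), Relb (3.72), Nfkb2 (2.67), Nfkb1 (2.39), Tnfaip3 (1.91) and Tnf (1.11), and every neighbour overlapped the next. At 72 h it was Tnfrsf1a (29.6), Tnfrsf12a (18.6), Nfkbia (17.3), Tnfrsf1b (14.6), Nfkb2 (3.52), Nfkb1 (3.44), Relb (2.94), Tnfaip3 (1.44) and Tnf (0.937). There the 4 highest genes, 3 receptors and Nfkbia, were separated from the rest, since Tnfrsf1b and Nfkb2 did not overlap, and Relb lay above Tnfaip3 without overlap.

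**Figure D4:**
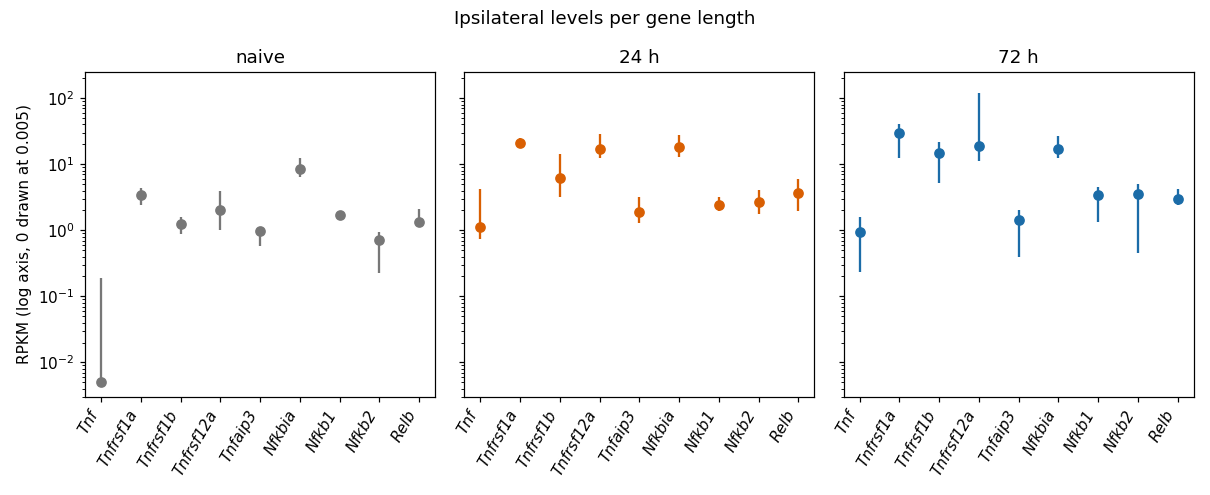
Level per gene length in ipsilateral cortex (RPKM, log axis) for the 9 genes at each time, with points at the median and bars from the lowest to the highest library. Tnfrsf1a and Tnfrsf12a overlap Nfkbia after injury, the median of Tnfrsf1b is 6.18 RPKM at 24 h and 14.6 RPKM at 72 h, and naive Tnf, with a median of 0, is drawn at the foot of the axis.

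Among themselves the 9 genes fell into patterns of larger and smaller rises. Over the 12 group means of sex, time and side, each gene centred on its own mean of log2(CPM + 0.5), Tnfrsf1a and Tnfrsf1b were 0.205 apart in root mean square, and Tnfrsf1a and Tnfrsf12a 0.206. Tnfaip3 lay nearest to Nfkbia (0.154), Nfkb1 nearest to Nfkbia (0.189), Relb nearest to Tnfaip3 (0.193) and Tnf nearest to Nfkb2 (0.272). By this measure the most unlike pair was Nfkb1 and Tnfrsf12a (1.08). Most naive libraries had no Tnf count, so the added 0.5 CPM shrinks the rise of Tnf. That addition bears on every distance of Tnf, here and below.

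By the same measure over 15910 genes, Tnf was most like Smim3 (0.132), Gbp2 (0.155) and Stat3 (0.157). Tnfrsf1a was most like Hspb6 (0.106), Cacng5 (0.106) and Dlk1 (0.120). Tnfrsf1b was most like Plek (0.111), Has2 (0.128) and Tmem252 (0.129), and Tnfrsf12a like Cd300lb (0.173), Itga5 (0.174) and Slfn2 (0.184). Of the inhibitors, Tnfaip3 was nearest to St3gal1 (0.0913), Kdm6b (0.0914) and Hsd17b7 (0.104), and Nfkbia to Ezr (0.0596), Chst11 (0.0635) and Atp8b1 (0.0652). Of the subunits, Nfkb1 was nearest to Svil (0.0610) and Picalm (0.0651), Nfkb2 to Csf3r (0.122), Tspan4 (0.125) and Icosl (0.126), and Relb to Rrad (0.125), Syt15 (0.151) and BC034090 (0.163). The nearest genes lay closer to each of the 9 than any other of the 9 did. With 15910 genes searched and only the other members of the 9 set beside them, this was likely beforehand.

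Other genes of the pathway were counted by role, from lists drawn up with earlier results of these data known. Their counts stand beside 43.0% of all genes called at 24 h (22.9% higher, 20.1% lower) and 48.5% at 72 h (27.8% higher, 20.7% lower). Of 9 TNF superfamily ligands tested, 4 were higher and 3 lower at 24 h and 6 higher and 1 lower at 72 h. Tnfsf8, the ligand of CD30, had medians of 0 CPM in naive, 0.914 CPM in 24 h and 1.62 CPM in 72 h punches (adjusted p = 2.7e-14 for 24 h against naive). Tnfsf14, also called LIGHT, had medians of 0, 0.996 and 0.503 CPM at the same stages (adjusted p = 6.6e-12 for 24 h against naive). Tnfsf10, the death ligand TRAIL, fell by 1.67 ± 0.19 on the log2 scale at 24 h (adjusted p = 2.6e-09), stood at 0.37 ± 0.28 at 72 h (adjusted p = 0.29) and was 2.04 ± 0.26 higher at 72 h than at 24 h. Eda, the ectodysplasin ligand, fell by 0.97 ± 0.13 at 24 h and by 0.84 ± 0.20 at 72 h.

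Of 20 other receptors of the family tested, 9 were higher and 2 lower at 24 h, and 9 were called at 72 h, all higher, where the share called was near that of all genes. Eda2r, a receptor for a form of ectodysplasin, had the largest log2 fold change of the 4 named, 4.51 ± 0.29 at 24 h and 5.39 ± 0.37 at 72 h. Ltbr, the lymphotoxin-beta receptor that feeds the non-canonical branch, rose by 1.55 ± 0.12 and 1.78 ± 0.17 at these times, and the death receptor gene Fas by 1.97 ± 0.23 and 1.62 ± 0.33. Tnfrsf10b, the TRAIL receptor, rose by 1.54 ± 0.18 at 24 h and 1.84 ± 0.27 at 72 h. Genes that control TNF release and mRNA decay were higher in 6 of 7 at both times. Zfp36, whose product tristetraprolin speeds the decay of Tnf mRNA, rose by 2.99 ± 0.18 at 24 h and 2.60 ± 0.24 at 72 h. Zc3h12a, which encodes the mRNA-degrading enzyme regnase, rose by 2.31 ± 0.19 and 1.88 ± 0.27. Rhbdf2, the escort of the enzyme that sheds TNF from cells, rose by 1.80 ± 0.17 and 2.29 ± 0.24, and its relative Rhbdf1 by 0.76 ± 0.11 and 0.94 ± 0.17.

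Of 24 adaptors, kinases and ligases below the receptors, 13 were higher and 1 lower at 24 h, and 10 higher and 1 lower at 72 h, again near the 48.5% of all genes called at 72 h. Birc3, a ubiquitin ligase of the receptor complex, rose by 1.85 ± 0.16 at 24 h and 1.51 ± 0.23 at 72 h. Ripk1, a kinase at the fork between survival and death signals, rose by 1.36 ± 0.13 and 1.80 ± 0.18. Cflar, which holds caspase-8 in check, rose by 0.93 ± 0.08 and 1.45 ± 0.12, and Casp8 itself by 1.69 ± 0.16 and 2.88 ± 0.23. Casp8 was 1.18 ± 0.20 higher at 72 h than at 24 h (adjusted p = 1.2e-05).

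Of 7 other NF-kB subunits and IkB proteins, 6 were higher at 24 h and 5 at 72 h. Bcl3, a nuclear IkB protein, rose by 4.59 ± 0.15 at 24 h and 4.73 ± 0.20 at 72 h. Nfkbiz, another nuclear IkB protein, rose by 1.80 ± 0.11 and 1.40 ± 0.16. The subunit genes Rela and Rel rose by 0.86 ± 0.07 and 1.04 ± 0.12 at 24 h and by 0.73 ± 0.11 and 0.95 ± 0.18 at 72 h. Of 9 other brakes on NF-kB tested, 5 were higher and 1 lower at 24 h, and 3 higher and 1 lower at 72 h, the counts at 72 h being near the 48.5% of all genes called and the 27.8% higher. Tnip2, a binding partner of the Tnfaip3 product, rose by 0.56 ± 0.08 at 24 h and 0.28 ± 0.12 at 72 h, and Nlrc3 by 0.65 ± 0.16 and 2.07 ± 0.22. Tax1bp1, an adaptor of the Tnfaip3 product, rose by 0.51 ± 0.15 at 24 h and stood at 0.27 ± 0.22 at 72 h (adjusted p = 0.32). Cyld, a deubiquitinase, fell by 0.34 ± 0.07 at 24 h and by 0.34 ± 0.11 at 72 h.

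Of 18 genes known as NF-kB targets, 16 were higher at 24 h (22.9% of all genes), and 16 higher and 1 lower at 72 h (27.8% and 20.7% of all genes), with list medians of 2.43 and 2.32 on the log2 scale. The chemokine gene Ccl2 had medians of 0 CPM in naive, 12.8 CPM in 24 h and 11.3 CPM in 72 h punches. Cxcl10 had 0.0617, 13.0 and 6.22 CPM, and Cxcl1, a neutrophil attractant, 0, 3.83 and 1.07 CPM at the same stages. Cxcl1 was lower at 72 h than at 24 h (log2 fold change -2.33 ± 0.39, adjusted p = 1.3e-05), and for Ccl2 (adjusted p = 0.25) and Cxcl10 (adjusted p = 0.998) the difference missed the threshold. Csf1, a growth factor for microglia and macrophages, rose by 1.57 ± 0.11 at 24 h and 1.90 ± 0.16 at 72 h. In the contralateral cortex edgeR called none of the 81 genes of these lists tested against naive at either time. At 24 h 10 had an unadjusted p under 0.05 (12.3%, against 13.6% of all genes) and DESeq2 called 3 (3.37% of all genes). At 72 h 8 had an unadjusted p under 0.05 (9.88%, against 16.5% of all genes) and DESeq2 called none (0.456% of all genes).

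**Figure D5:**
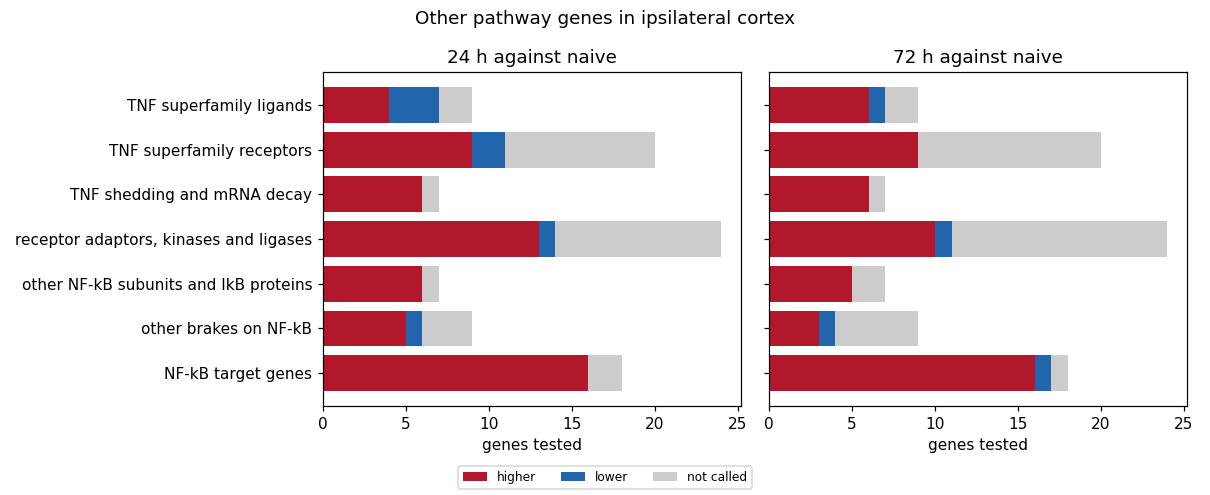
Number of genes tested in each of 7 pathway lists (horizontal axis) that were called higher, called lower or not called in ipsilateral cortex, at 24 h against naive (left) and 72 h against naive (right). The NF-kB target list has 16 of 18 genes higher at both times.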

How the data were processed

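RNA of ipsilateral and contralateral cortical punches was sequenced from 44 mice, 1 library per punch. Per the submitters' processing notes, the aligner was HISAT2 2.0.5 and the genome mm10. Not given in the sources used here were the use of strand, the counting program and its annotation. Raw read counts per gene were deposited by the authors, and CPM (counts over the library total), log2 and RPKM values were computed here from these deposited counts. Of 54532 gene identifiers 54409 were matched to symbols, and those without one held 0.0615% of counts. Symbols and positions come from GENCODE M21 (GRCm38) and upstream sequences from RefSeq. Groups follow the sex, treatment, side and batch labels, no 2 libraries of a group agreed within sampling noise (smallest chi-square per gene 2.64), and mitochondrial genes held 2.35 to 10.5% of counts.

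Ipsilateral libraries (43, with 19126 genes and 35 residual degrees of freedom) and contralateral libraries (44, 18436 genes, 36) were each fitted in edgeR 4.0.16 (limma 3.58.1, R 4.3.3) with filterByExpr, TMM scaling, a batch term and the two-sided quasi-likelihood test, on the mean of the female and male effects. The sides were compared in 86 libraries from 43 animals (19946 genes, 37), where the labels name the animal of each punch and so give the pairing, with the animal as a block. Benjamini-Hochberg adjustment ran over every gene of a fit, with calls at an adjusted p under 0.05, and they measure the spread between animals. Tnf, nearly absent from naive punches, is given as a ratio of pooled CPM with an exact counting interval, or against a floor of 3 counts over the group. The fits were tested on simulated counts.

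The members and lists were chosen with earlier results of these data known. The genes named are the 9 members, up to 4 genes per list with the smallest p at 24 h against naive, and the 3 genes nearest to each member by root mean square difference of 12 group means, of which 1 is not reported here. Alternatives were DESeq2 1.42.0 and its size factors, total count scaling, no low-count filter, no batch term, single batches and sexes, no block, and leaving out single libraries; leaving out LF3, or LF3 and QF1, was chosen after seeing the data.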

Additional observations from a re-analysis of the deposited data

Results flagged for a closer look

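In groups of 6 to 9 libraries of 1 sex, time and side, the highest or lowest value of a gene was set against the gap to its neighbour (Dixon's ratio at the 95% level). This singled out 21 of 107 gene and group pairs, and 15 of the 21 belong to 3 animals. A rate of about 1 in 20 would hold for independent, normally spread values. Genes of the same library are not independent and Tnf values near 0 are skewed, so an excess over that rate was not tested. The female LF3 at 72 h had 227 CPM of Tnfrsf12a (next 48.7 CPM) and 2.83 CPM of Tnfaip3 (next 9.36 CPM) in its ipsilateral punch. In its contralateral punch it had 17.4 CPM of Tnfrsf1a, 28.6 CPM of Tnfrsf12a, 8.82 CPM of Relb and, as the lowest of its group, 9.11 CPM of Nfkb1. The female QF1 at 24 h had 55.1 CPM of Tnfrsf12a ipsilaterally, and 35.2 CPM of Tnfrsf1a, 14.8 CPM of Tnfrsf12a and 8.02 CPM of Nfkb2 contralaterally. The female RF1 at 24 h had 6.08 CPM of Tnf (next 3.07 CPM), 44.4 CPM of Tnfrsf1b, 23.4 CPM of Tnfaip3 and 44.5 CPM of Nfkbia ipsilaterally, and 0.397 CPM of Tnf contralaterally.

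The remaining single values were 0.308 CPM of Tnf in the naive female EF3 (ipsilateral), 0.0586 CPM of Tnf in the naive female GF3 (contralateral, with its group otherwise at 0) and 0.184 CPM of Tnf in the 72 h male PM1 (contralateral). The 24 h male DM2 had 8.87 CPM of Tnfrsf1b contralaterally, the 72 h male LM2 19.1 CPM of Nfkbia contralaterally, and the naive male EM3 the lowest ipsilateral Nfkb2 of its group, 1.03 CPM.

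The side difference, ipsilateral over contralateral, differed between 72 h and 24 h for 4 of the 9 genes, by the test of that difference in edgeR with the animal as a block. The same test called 35.4% of all genes, 18.9% with a larger and 16.4% with a smaller side difference at 72 h. The side difference was larger at 72 h by 0.47 on the log2 scale for Nfkb1 (adjusted p = 1.18e-06) and by 0.81 for Tnfrsf1b (adjusted p = 0.000414). It changed by -0.80 for Relb (adjusted p = 2.41e-05) and by -0.48 for Tnfaip3 (adjusted p = 0.00427).

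The ipsilateral library of PM1, which is in no group because its labels differ on sex, held all 9 genes above the highest naive ipsilateral library. It had 0.994 CPM of Tnf (highest naive 0.308 CPM), 77.7 CPM of Tnfrsf1a (11.1 CPM), 45.2 CPM of Tnfrsf1b (5.97 CPM) and 37.0 CPM of Tnfrsf12a (7.60 CPM). Its inhibitor genes stood at 9.81 CPM for Tnfaip3 (highest naive 7.84 CPM) and 27.9 CPM for Nfkbia (20.3 CPM). Its subunit genes stood at 36.1 CPM for Nfkb1 (22.2 CPM), 13.5 CPM for Nfkb2 (4.30 CPM) and 11.8 CPM for Relb (8.03 CPM). How many of all genes lay above the naive range in this library was not counted. The values therefore cannot show whether this is particular to the 9 genes.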

How the results depend on the processing

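All 9 genes stayed called at 24 h against naive ipsilaterally under every alternative run and for every library left out (9 to 9), except that DESeq2 gave no p for Tnfrsf12a in the ipsilateral fit. At 72 h against naive, 8 to 9 were called with 1 library left out. The 72 h against 24 h comparison of injured punches was the least stable: in place of 4 genes it called 1 with total count scaling, 2 without the low-count filter, 0 in batch B alone, 2 without LF3, and 2 to 4 with 1 library left out, and Tnfrsf12a, at -0.31 to 1.43 with 1 library left out, turned to -0.31 without LF3. Without the batch term edgeR newly called Tnf (-0.81, adjusted p = 0.0178), Tnfrsf1a (0.38, adjusted p = 0.00023) and Relb (-0.34, adjusted p = 0.0196) in that comparison. Tnfrsf12a was then no longer called (0.48, adjusted p = 0.160). The cause was not tested beyond these values. Contralaterally, the 1 gene called at 24 h against naive became 0 without the batch term, in batch A or B alone and in females or males alone, and 0 to 1 with 1 library left out. The 1 gene called at 72 h against 24 h became 2 with DESeq2, and 0 in batch B alone, without LF3, and without LF3 and QF1, and 0 to 2 with 1 library left out. At 72 h against naive it stayed 0 to 0. The side comparisons called 0 to 0 (naive), 9 to 9 (24 h) and 9 to 9 (72 h), and their change between times 4 to 5, the 5 being without LF3. The differences between sexes stayed 0 to 0. Without the animal block the side counts were 0, 9, 9 and 4, so the pairing changed no call.

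Over all genes, 8216 calls at 24 h and 7078 at 72 h against 24 h became 4297 and 3854 in batch B alone. Contralaterally, 388 calls at 24 h became 238 with total count scaling, 255 without the filter, 621 with DESeq2, 202 and 0 in batches A and B, 1190 without LF3, 1116 without LF3 and QF1, and 17 in females and 185 in males. The 48 calls at 72 h became 84 with DESeq2, 1456 without the batch term, 3 in batch B, 17 without LF3, and 570 in females and 1 in males. The 1698 calls at 72 h against 24 h became 357 with total count scaling, 1025 with DESeq2, 1106 without the filter, 699 without the batch term, 3 in batch B, 45 without LF3 and 46 without LF3 and QF1. The naive side count of 0 became 17 without the filter. Total count scaling moved the share of calls that were higher to 67.3% from the 53.2% of TMM at 24 h, to 54.2% from 38.9% contralaterally at 24 h, to 63.9% from 50.5% for the side at 72 h and to 66.9% from 53.6% for its change. It moved the median gene by 0.13 for the side at 72 h and by -0.10 contralaterally at 72 h against 24 h. Tnf, with 7 counts over all naive ipsilateral libraries and 4 over the contralateral ones, is limited by depth, and batch C held only 72 h animals, so its term in the fits is estimated from 72 h libraries alone.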
